A study of Mus musculus with 31 samples.

Results

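The genes described here are 7 matrix metalloproteinases (MMPs: Mmp3, Mmp8, Mmp9, Mmp12, Mmp13, Mmp14 and Mmp19) and 3 tissue inhibitors of metalloproteinases (TIMPs: Timp1, Timp2 and Timp3). They were taken by symbol from a deposited RNA-seq count table, where they are 10 of 24411 entries, and all 10 were among the 12337 genes tested. The libraries come from mouse Ly6C-high monocytes of strain C57BL/6J, sorted as CD11b+ Ly6G- Ly6C-high MHC-II- cells. Healthy mice gave 3 blood libraries. Mice carrying a subcutaneous tumor grown from Lewis lung carcinoma cells (LLC), a line that can be transplanted into this strain, gave 3 blood libraries, and the tumors themselves gave 3. No treatment or genetic change is named in the labels, and age and sex are not given in the sources used here. In the table, the blood columns hold the letters BM. They were read as blood monocyte, since the titles name blood, and the table alone does not separate this reading from bone marrow.

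MMPs are zinc-dependent endopeptidases that cut collagens, elastin, laminins and other matrix proteins, and most are secreted as inactive proenzymes that other proteases switch on. TIMPs bind the active site of MMPs and block it, so the net activity in a tissue is set by both families. Monocytes and macrophages of tumors are known sources of several MMPs, and so are fibroblasts, neutrophils and tumor cells. The question addressed is which of these genes differ in monocytes between healthy blood, blood of tumor-bearing mice and tumor.

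Total counts lay between 10457478 and 20706410 per library. Levels are CPM, the counts of a gene scaled to the same total in each library. They are not corrected for gene length, so levels are compared only within a gene. The floor was set at 3 counts in each library of a group, which is 0.145 to 0.287 CPM depending on the library and covers counting error only. The sorting markers were present in all 9 libraries: Itgam (CD11b) had 893 to 3720 CPM and Ly6c2 272 to 1728 CPM, with the lowest Ly6c2 levels in the tumor libraries. Markers of fibroblasts stood apart in some libraries. The summed level of 26 fibroblast markers was 35.5 to 61.1 CPM in healthy blood, where Thy1 alone had 9.58 to 49.2 CPM and Col1a1 at most 0.286 CPM. In LLC blood the sum was 538, 9.05 and 9.70 CPM in libraries 1, 2 and 3. In LLC tumor it was 1391, 4910 and 5468 CPM. From reads of a bulk sample, fewer cells of a type and less RNA per cell cannot be told apart.

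The genes were first placed on the genome. Coordinates and promoter sequences are from RefSeq for assembly GRCm38.p6, which is the mm10 build named in the submitters' processing notes. Mmp13 (chr9:7272514-7283333), Mmp12 (chr9:7344397-7360461), Mmp3 (chr9:7445822-7455975) and Mmp8 (chr9:7558429-7568486) lie in a cluster of 10 MMP genes that spans 427.1 kb of chromosome 9. The other 6 genes are apart from it: Mmp14 at chr14:54431598-54442456, Mmp19 at chr10:128790910-128800827, Mmp9 at chr2:164940326-164955850, Timp1 at chrX:20870166-20874737, Timp2 at chr11:118301061-118355411 and Timp3 at chr10:86300412-86349505. Promoter windows of 250 bases before and 50 bases from the annotated start on were found for 8 of the 10 genes. They were searched on both strands for TGANTCA (a site for AP-1, a transcription factor family induced by growth factors and inflammation, and the element classically described in MMP promoters), TATAAA (the letters of the TATA box) and GGGCGG (those of the GC box, bound by Sp1-type factors). The 3 motifs share no letters in the windows shown. The sequences below are the 100 bases before the start of 4 genes of the cluster and of 2 genes outside it, and they are shown because the 4 clustered genes hold AP-1 matches that the 2 shown from outside do not. Capitals mark AP-1 and TATA matches in the first 4 sequences and GC boxes, on either strand, in the last 2.
Mmp3 (chr9:7445722-7445821, plus strand): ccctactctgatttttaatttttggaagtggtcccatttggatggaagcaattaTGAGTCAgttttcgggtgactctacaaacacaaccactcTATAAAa
Mmp13 (chr9:7272414-7272513, plus strand): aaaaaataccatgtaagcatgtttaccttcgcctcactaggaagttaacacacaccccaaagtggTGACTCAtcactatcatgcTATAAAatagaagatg
Mmp12, downstream start (chr9:7347274-7347373, plus strand): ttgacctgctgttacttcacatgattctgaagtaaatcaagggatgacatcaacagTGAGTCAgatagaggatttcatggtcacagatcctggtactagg
Mmp10 (chr9:7502242-7502341, plus strand): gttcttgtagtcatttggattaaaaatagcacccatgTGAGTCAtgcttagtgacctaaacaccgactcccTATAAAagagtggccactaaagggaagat
Mmp14 (chr14:54431498-54431597, plus strand): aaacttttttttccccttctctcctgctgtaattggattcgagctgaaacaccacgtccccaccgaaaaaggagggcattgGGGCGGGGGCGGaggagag
Timp1 (chrX:20870066-20870165, plus strand): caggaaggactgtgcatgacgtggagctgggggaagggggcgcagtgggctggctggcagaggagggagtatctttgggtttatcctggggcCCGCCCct

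AP-1 matches began 46 bases before the start of Mmp3, 35 before that of Mmp13 and 44 before the downstream start of Mmp12. A TATA match was in the same window for each of these 3 genes, 5 bases past the start in Mmp12. Among all 32851 annotated starts, 7.81% of windows held the AP-1 letters, 13.6% the TATA letters, 35.7% the GC box letters and 1.54% both AP-1 and TATA. Of the 10 MMP genes in the cluster, 8 held AP-1 and TATA in 1 window, and none of them held a GC box. Mmp8, the fourth gene of the set in the cluster, had a TATA match and no AP-1 match. Mmp14, Timp1, Timp2 and Timp3 each held a GC box and neither of the other motifs. A match is a description of the letters in these windows and says nothing of binding.

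**Figure D1:**
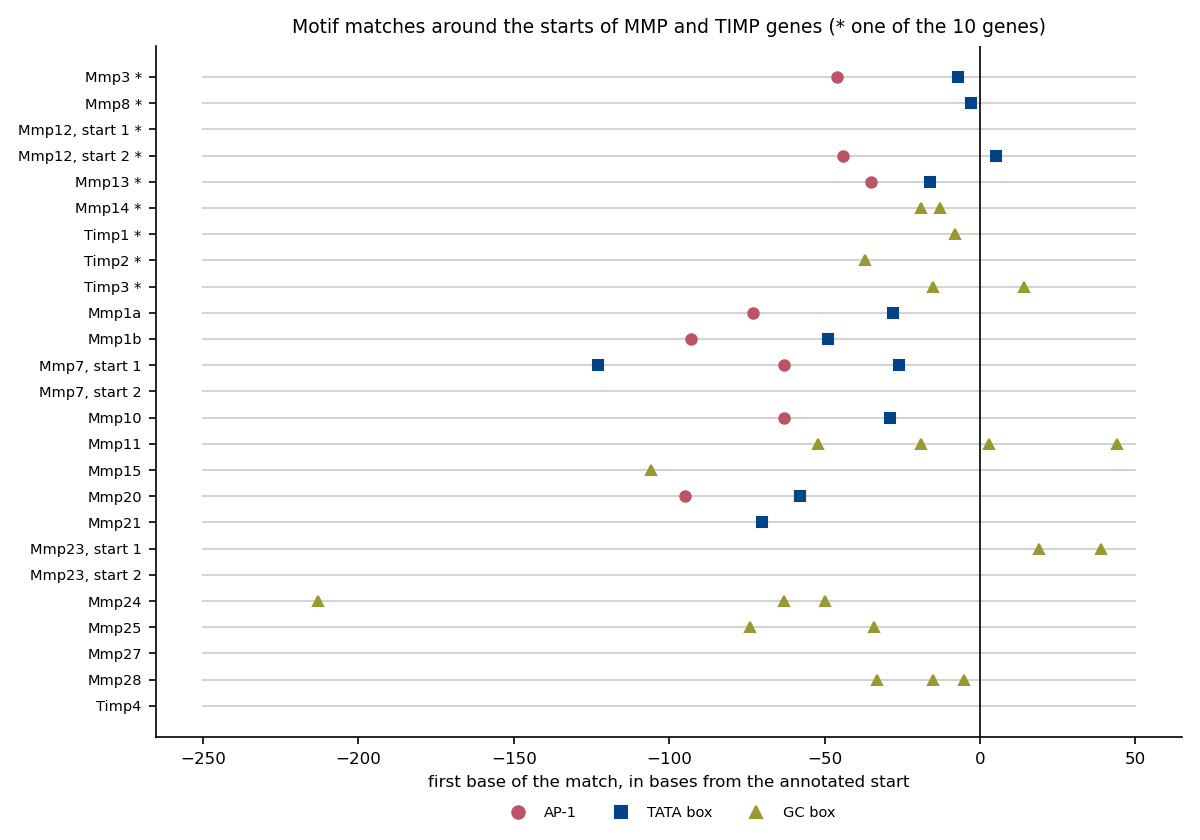
Positions of AP-1, TATA box and GC box matches (first base of each match, in bases from the annotated start) in windows from 250 bases before to 50 bases after the start, 1 line per start of 22 MMP and TIMP genes; asterisks mark the genes of the set. AP-1 matches (circles) appear on 8 genes, all in the chromosome 9 cluster, and GC boxes (triangles) on 10 others.

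In blood, 2 of the 10 genes differed between tumor-bearing and healthy mice. Mmp8 and Mmp19 were higher in LLC blood, against 14.0% of all tested genes called higher, and no gene of the set was called lower, against 9.61% of all genes (edgeR quasi-likelihood test, adjusted p under 0.05 over all genes). At an unadjusted p under 0.05, 1 gene of the set (Mmp12) was lower, and DESeq2 and limma-voom called 0 lower. Between tumor and LLC blood, 8 genes were higher in the tumor, against 29.6% of all genes, and 1 was lower (Mmp8), against 31.7%. Between tumor and healthy blood, 9 genes were higher, against 33.5% of all genes, and 0 were lower, against 33.0%. No gene of the set was lower in that comparison at an unadjusted p under 0.05, and DESeq2 and limma-voom also called 0. The median log2 fold change of the 10 genes was -0.12, 5.32 and 5.59 in these comparisons, beside -0.0092, -0.034 and -0.0025 over all tested genes. With folds against a group at the floor set to their bound, the last median is 4.94, and the others keep their value. Of the 10 genes, 6 would pass the filter on low counts in the 6 blood libraries alone. Mmp3, Mmp13, Timp1 and Timp3 passed only through the tumor libraries, so a difference in the tumor was built into their entry. The comparisons share libraries and are not independent. Nothing in the labels says that the libraries of a group come from separate animals, so p-values measure the spread between these samples.

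**Figure D2:**
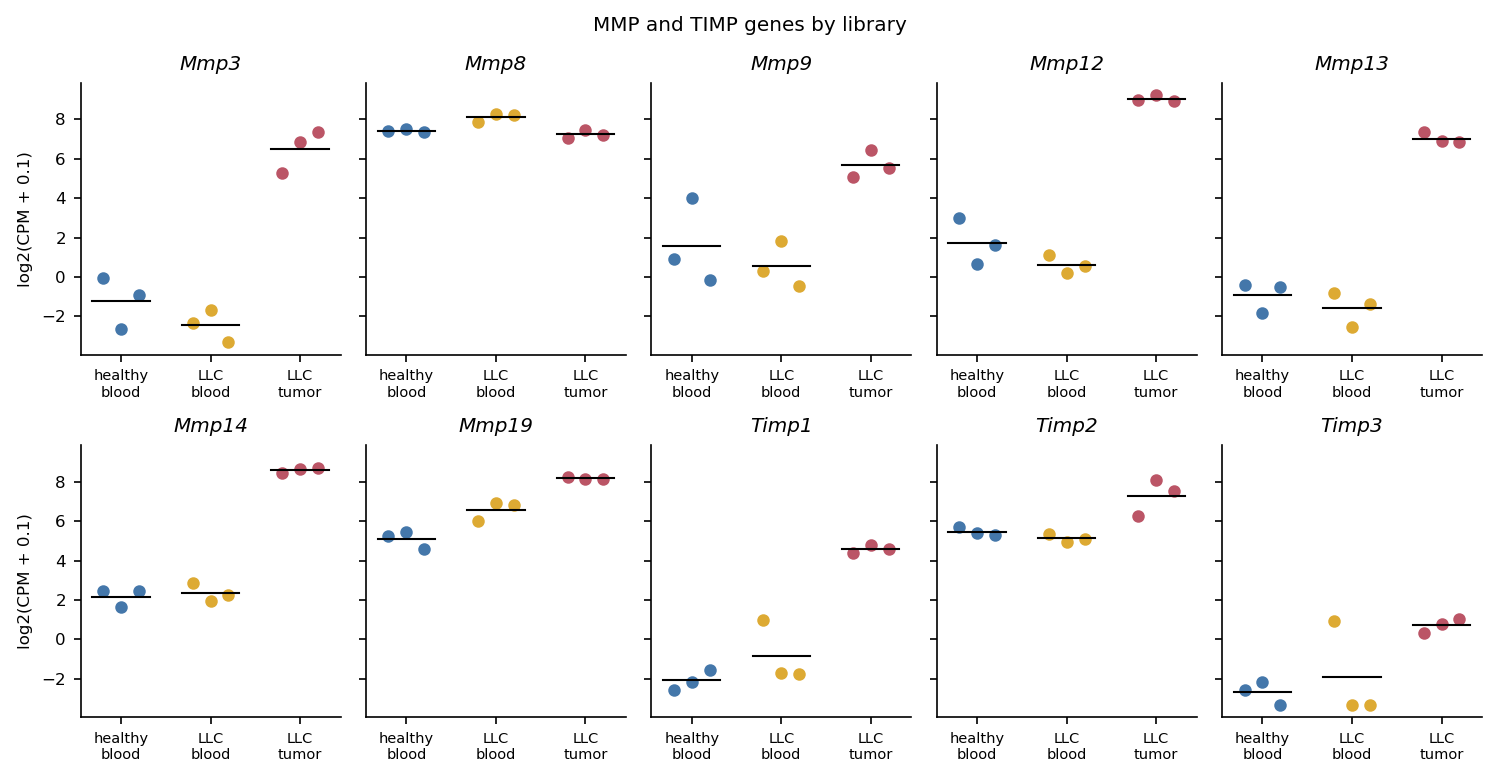
Level of each gene in the 9 libraries, as log2(CPM + 0.1); points are libraries, from left to right 1, 2 and 3 in each group, and bars are means of the 3 log2 values. In 7 panels all tumor points lie more than 1 log2 unit above all blood points, while Mmp8 is highest in LLC blood, Timp2 separates less and Timp3 overlaps with 1 LLC blood library.

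The collagenases Mmp8 and Mmp13, which cut fibrillar collagen, had different patterns. Mmp8, the neutrophil collagenase, had 171, 180 and 167 CPM in healthy blood libraries 1, 2 and 3, 231, 313 and 303 CPM in LLC blood, and 135, 174 and 149 CPM in tumor. LLC blood stood above both other groups with no overlap, and healthy blood and tumor overlapped. Mmp8 rose in LLC blood by a log2 fold change of 0.68 (SE 0.11, adjusted p = 0.00317) and was lower in tumor than in LLC blood by 0.69 on the log2 scale (SE 0.11, adjusted p = 0.000572). Tumor and healthy blood differed by -0.013 (SE 0.11, adjusted p = 0.929), and the sign of this small difference turned under 4 of 20 alternatives. In the annotation Mmp8 overlaps the predicted gene Gm31751. Neutrophil markers moved with the level in blood only in part. The test called 7 of 18 higher in tumor-bearing mice, 2 lower and 9 neither, beside 14.0% higher and 9.61% lower among all genes. Their median log2 fold change was 1.42 (LLC over healthy blood). Mean levels were lower in LLC than in healthy blood for Csf3r (492 against 527 CPM), Cd177 (223 against 367) and Padi4 (74.9 against 95.0). The mean sum of the 18 was 1157 against 1078 CPM, with overlap between the groups. The granule gene Ltf had 0 to 1.35 CPM in healthy blood and 0.574, 22.9 and 9.37 CPM in LLC blood 1, 2 and 3, the same order as for Mmp8. The part of neutrophil reads in the Mmp8 values was not tested. Mmp13, a collagenase that also cuts type II collagen of cartilage, was close to the floor in blood. Its values were 0.643, 0.184 and 0.613 CPM in healthy blood and 0.478, 0.0692 and 0.290 CPM in LLC blood, and the groups overlapped. In tumor Mmp13 had 163, 119 and 115 CPM. All tumor libraries were above 115 CPM and no blood library reached 1 CPM. The log2 fold change was 9.15 against LLC blood (SE 0.43, adjusted p = 3.7e-07) and 8.31 against healthy blood (SE 0.40, adjusted p = 3.4e-07), and -0.85 in LLC blood against healthy blood (adjusted p = 0.469).

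The stromelysin Mmp3 and the macrophage elastase Mmp12 were both low in blood and high in tumor. Mmp3, which cuts laminin, fibronectin and proteoglycans and activates other MMPs, had 0.858, 0.0614 and 0.429 CPM in healthy blood and 0.0956, 0.208 and 0 CPM in LLC blood, where 4 counts were seen in all. It had 38.3, 115 and 165 CPM in the tumor libraries. The lowest tumor library was thus far above the highest blood library, and tumor library 1 was well below the other 2. Because LLC blood was at the floor, the pooled counts give a ratio of 1220.2 for tumor over LLC blood, with a 95% counting interval of 476 to 4481 (adjusted p of the fit = 6.1e-06). The ratio over healthy blood was 249 (161 to 408), with a log2 fold change of 8.03 (SE 0.66, adjusted p = 6.7e-06). With LLC tumor 1 as the only tumor library, this log2 fold change was 6.81 (adjusted p = 6.5e-05). In blood the groups overlapped (adjusted p = 0.357). In the 3 tumor libraries its count was not a whole number, so some of its reads were split with another gene. Mmp10, which lies in the same cluster, also had fractional counts in 3 libraries.

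Mmp12, the elastin-cutting enzyme named for macrophages, had 7.79, 1.47 and 2.94 CPM in healthy blood, 2.10, 1.04 and 1.35 CPM in LLC blood and 508, 609 and 484 CPM in tumor. The 3 tumor libraries lay close together and far above all blood libraries. Mmp12 rose in tumor by a log2 fold change of 8.72 against LLC blood (SE 0.52, adjusted p = 1.1e-06) and of 7.24 against healthy blood (SE 0.46, adjusted p = 1.4e-06). The latter was 8.07 without healthy blood 1. LLC blood against healthy blood gave -1.48 (SE 0.57, adjusted p = 0.0891), with 1 of 3 healthy libraries within the LLC range. Without healthy blood 2, the difference in blood was -1.95 and passed the test (adjusted p = 0.0234). Without healthy blood 1, which held the highest level, it was -0.64 (adjusted p = 0.284).

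The gelatinase Mmp9, which cuts denatured collagen and type IV collagen and is stored in neutrophil granules, was higher in tumor than in blood and varied between libraries of the same group. It had 1.79, 16.1 and 0.797 CPM in healthy blood, 1.15, 3.39 and 0.628 CPM in LLC blood, and 33.9, 88.4 and 46.0 CPM in tumor. Every tumor library was above every blood library, and healthy blood 2 stood above the other blood libraries. The rise in tumor had a log2 fold change of 5.23 against LLC blood (SE 1.01, adjusted p = 0.00154) and of 3.29 against healthy blood (SE 0.86, adjusted p = 0.00768). Without healthy blood 2 the latter was 5.56 (adjusted p = 0.000244). With LLC tumor 1 as the only tumor library it was 2.81 and did not pass the test (adjusted p = 0.0686). LLC blood against healthy blood gave -1.93 (adjusted p = 0.213), and 0.31 without healthy blood 2 (adjusted p = 0.832).

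Neutrophil genes moved with Mmp9 in part. Of the 18 neutrophil markers, 15 were highest of the healthy libraries in healthy blood 2 and 12 of the LLC blood libraries in LLC blood 2. In tumor 2, 13 were highest of the tumor libraries. Mmp9 was highest of its group in each of these libraries. Cd177 went the other way and was lowest of its group in each of them. The genes named here were picked after their values were seen. In healthy blood 2, S100a8 had 61.2 CPM, S100a9 90.7, Cxcr2 11.5 and Retnlg 8.54. In healthy blood 1 and 3 they were at most 4.66, 2.51, 0.430 and 0.368 CPM. The same library was thus highest for Mmp9 and for these 4 genes among the healthy libraries. LLC blood 2 had more S100a8 (217 CPM) and S100a9 (161 CPM) than healthy blood 2 but less Mmp9. Among the tumor libraries, tumor 2 was highest for Mmp9, S100a8 (112 CPM), S100a9 (87.6 CPM) and Retnlg (6.20 CPM). The summed level of all 18 markers was 962 to 1191 CPM in healthy blood, 971 to 1327 CPM in LLC blood and 1029 to 1102 CPM in tumor. In blood most of this sum came from Csf3r (498 to 543 CPM in healthy blood) and Cd177 (343 to 409 CPM). In tumor most came from Trem1 (343 to 555 CPM) and Il1r2 (237 to 293 CPM). By single genes, 2 were called higher and 9 lower in tumor than in LLC blood, beside 29.6% and 31.7% of all genes. Retnlg and Stfa2l1 passed the filter on low counts only through the tumor libraries. Of the 18, 18 had a count in healthy blood 2 and in tumor 2, while 5 were at 0 in tumor 1. Mmp8 differed little among the healthy libraries (167 to 180 CPM). The part of neutrophil reads in the Mmp9 values was not tested.

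**Figure D3:**
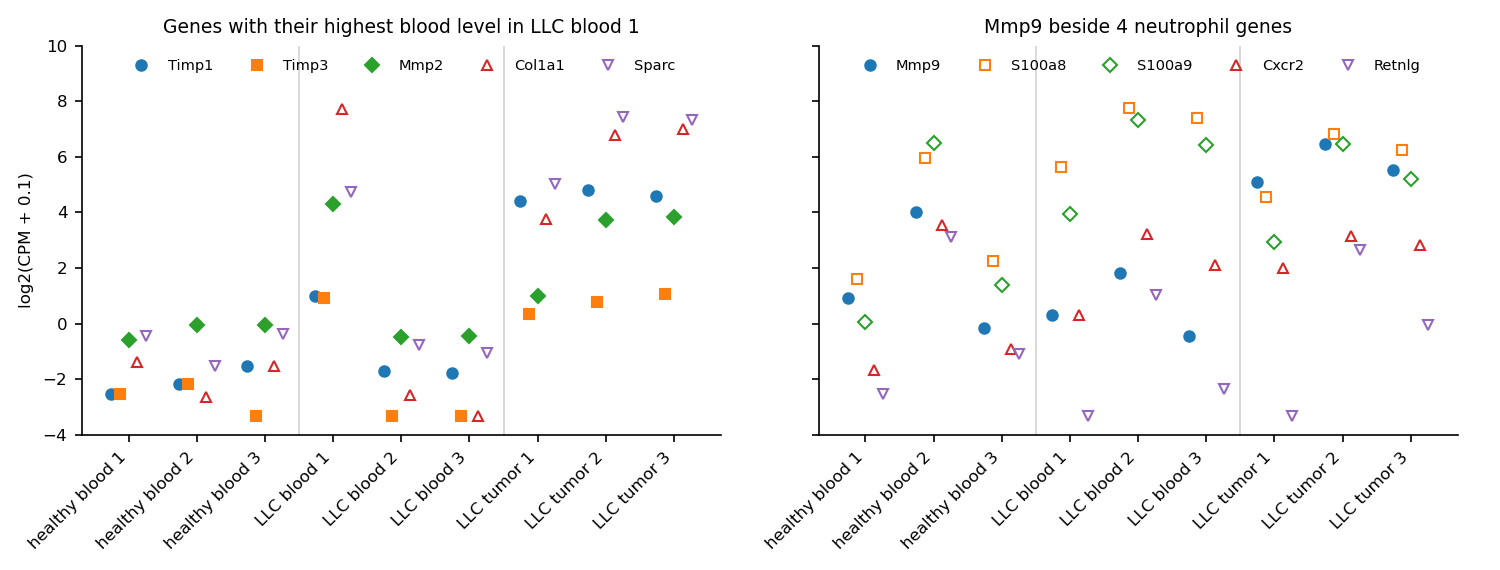
Level in each of the 9 libraries as log2(CPM + 0.1), 1 point per library and gene; filled symbols are MMP and TIMP genes, open symbols marker genes. Left, Timp1, Timp3 and Mmp2 with the fibroblast genes Col1a1 and Sparc, all highest among the blood libraries in LLC blood 1; right, Mmp9 with 4 neutrophil genes, where healthy blood 2 is highest of its group for all 5.

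Mmp14, a membrane-anchored MMP that cuts pericellular collagen and activates pro-MMP2 together with Timp2, had 5.36, 3.01 and 5.40 CPM in healthy blood and 7.17, 3.74 and 4.68 CPM in LLC blood. In tumor it had 347, 411 and 416 CPM. The blood groups overlapped, and the tumor libraries formed a narrow band far above them. The log2 fold change of Mmp14 was 6.46 against LLC blood (SE 0.25, adjusted p = 2.1e-07) and 6.59 against healthy blood (SE 0.25, adjusted p = 1.5e-07). In LLC blood against healthy blood it was 0.12 (SE 0.26, adjusted p = 0.777), and the sign of that value turned when LLC blood 1 (-0.12) or healthy blood 2 (-0.16) was left out.

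Mmp19, a secreted MMP that cuts basement membrane components, was the gene of the set called higher in all 3 comparisons. It had 37.6, 43.9 and 24.2 CPM in healthy blood, 63.6, 121 and 115 CPM in LLC blood and 302, 283 and 283 CPM in tumor. The groups did not overlap, in the order healthy blood, LLC blood, tumor. Mmp19 rose in LLC blood by a log2 fold change of 1.48 (SE 0.27, adjusted p = 0.00491), and tumor was above LLC blood by 1.74 (SE 0.27, adjusted p = 0.000395) and above healthy blood by 3.22 (SE 0.29, adjusted p = 1.1e-05). Its counts were not whole numbers in all 9 libraries, so some of its reads were split with another gene. Tmem198b, which overlaps it in the annotation, had 14.3 to 22.3 CPM in blood and 28.9 to 31.5 CPM in tumor.

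Among the inhibitors, Timp1 and Timp2 rose in tumor and Timp3 was low in every library. Timp1, a secreted inhibitor of most soluble MMPs, had 0.0715, 0.123 and 0.245 CPM in healthy blood, 1.91, 0.208 and 0.193 CPM in LLC blood and 21.2, 28.2 and 24.0 CPM in tumor. The tumor libraries lay close together above all blood libraries, and LLC blood 1 stood above the other 5 blood libraries. Timp1 rose in tumor by a log2 fold change of 7.43 against healthy blood (SE 0.74, adjusted p = 2.1e-05) and of 5.41 against LLC blood (SE 0.62, adjusted p = 6.0e-05), and the latter was 7.05 without LLC blood 1. In blood the difference of 2.02 did not pass the test (adjusted p = 0.167), passed it with DESeq2 (2.25, adjusted p = 0.0391), and was 0.38 without LLC blood 1 (adjusted p = 0.754). Timp1 lies within the span of Syn1, and whether the counting used strand is not given in the sources used here. Syn1 had 0.290 to 0.674 CPM in blood and 5.78 to 12.2 CPM in tumor, and reads of these genes may not be separable.

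Timp2, which both inhibits MMPs and takes part with Mmp14 in activating pro-MMP2, had 51.9, 42.6 and 39.2 CPM in healthy blood, 41.6, 30.6 and 34.5 CPM in LLC blood and 77.1, 278 and 187 CPM in tumor. The tumor libraries were all above the blood libraries but spread widely, with tumor 1 lowest. Timp2 rose in tumor by a log2 fold change of 2.49 against LLC blood (SE 0.33, adjusted p = 0.000149) and of 2.14 against healthy blood (SE 0.32, adjusted p = 0.000309). With LLC tumor 1 as the only tumor library the values were 1.52 and 1.17, and both passed the test (adjusted p = 0.00023 and 0.000902). In blood the difference was -0.35 (SE 0.32, adjusted p = 0.464). In the annotation Timp2 overlaps Cep295nl.

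Timp3, an inhibitor that binds to the matrix and also blocks ADAM proteases, had 1, 2 and 0 counts in the healthy libraries, 19, 0 and 0 in LLC blood and 54 in the 3 tumor libraries together. In CPM the tumor libraries had 1.17, 1.60 and 1.99, and LLC blood 1 had 1.82. Healthy blood did not overlap with tumor, and LLC blood did, through LLC blood 1 alone. Relative to the library totals, the pooled counts of tumor were 24.7 times those of healthy blood, with a 95% counting interval of 8.02 to 124 (adjusted p of the fit = 0.0231). This call was lost without any 1 of the 3 healthy libraries (adjusted p = 0.0662, 0.0554 and 0.0790), without LLC tumor 3 (0.0538) and with LLC tumor 1 as the only tumor library (0.110). Against LLC blood the log2 fold change of 1.79 did not pass the test (adjusted p = 0.214), and without LLC blood 1 it was 7.64 and passed (adjusted p = 0.000922). In blood the difference was 2.80 (adjusted p = 0.263), and -3.04 without LLC blood 1. Timp3 shares its locus with Syn3, which had 1.90 to 3.14 CPM in blood and 0.722 to 1.06 CPM in tumor.

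**Figure D4:**
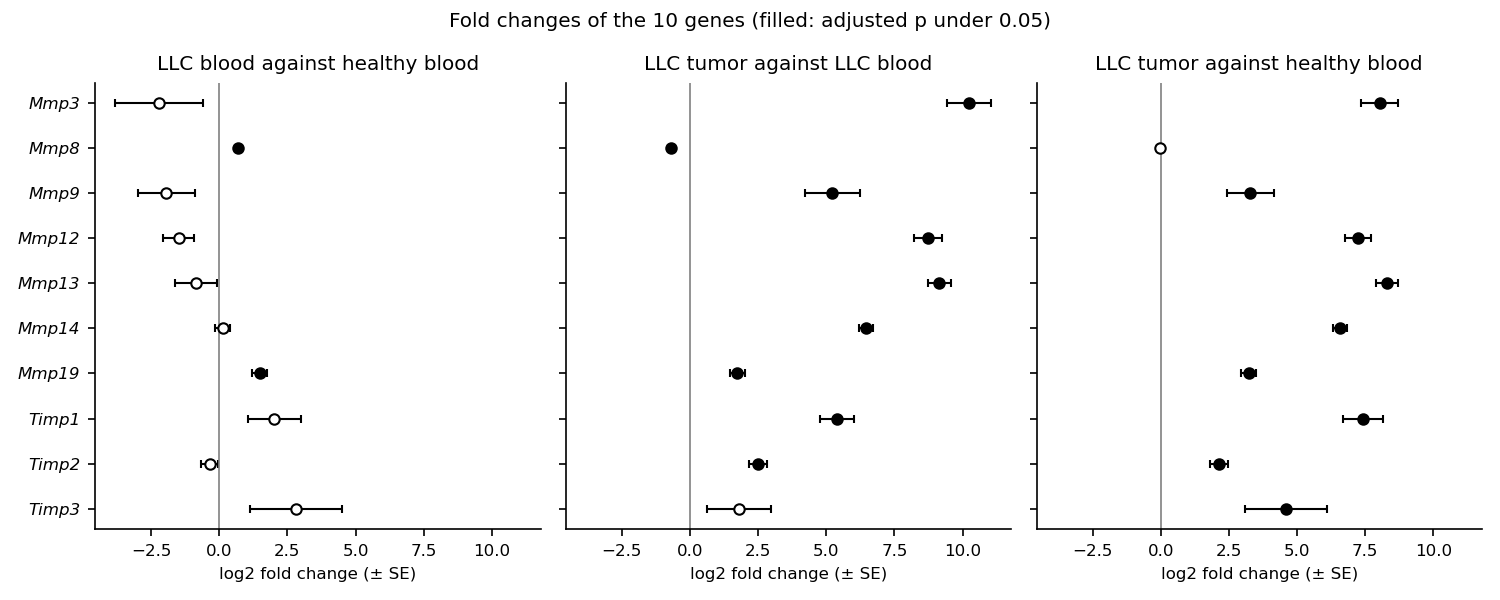
Log2 fold changes with their standard errors (bars) for the 10 genes in the 3 comparisons, from 1 edgeR quasi-likelihood fit on 9 libraries; filled symbols passed an adjusted p of 0.05. In the left panel only Mmp8 and Mmp19 are filled; in the right panel Mmp8 (-0.013) is the only open symbol.

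The tumor libraries differed in fibroblast markers, and some of the 10 genes differed with them. The summed level of the 26 markers was 3.53 times as high in tumor 2 and 3.93 times as high in tumor 3 as in tumor 1, and all 26 had a count in each tumor library. Of the 26, 25 were higher in both tumor 2 and tumor 3 than in tumor 1, and Pdpn was the exception. Mmp3 followed with ratios of 3.00 and 4.32. Timp2 had ratios of 3.60 and 2.43 and was highest in tumor 2, while the fibroblast sum was highest in tumor 3. The neutrophil gene S100a8 had the order of Timp2, with ratios of 4.81 and 3.23. The same order held for the summed markers of LLC and epithelial tumor cells (67.7, 129 and 96.8 CPM in tumor 1, 2 and 3). Mmp9 had ratios of 2.60 and 1.35, and Timp3 1.36 and 1.69. The ratios of Timp1, Mmp8, Mmp12, Mmp14 and Mmp19 lay between 0.935 and 1.33. Mmp13 was lower in tumor 2 and 3 than in tumor 1, with ratios of 0.729 and 0.704.

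Per 1000 CPM of fibroblast markers, Mmp3 had 27.5, 23.4 and 30.2 CPM in tumor 1, 2 and 3, so its highest value was 1.29 times its lowest. Timp2 had 55.4, 56.6 and 34.2 CPM on this scale, a 1.65-fold range. Mmp12 had 365, 124 and 88.5 CPM, a 4.13-fold range. For Mmp13 the range was 5.58-fold, for Mmp19 4.21-fold and for Mmp14 3.28-fold. On this scale Mmp3 varied less than Mmp12, Mmp13, Mmp14 and Mmp19 over the 3 tumor libraries. The scale rests mostly on Col3a1 (713, 2801 and 3099 CPM), and single markers had other ratios: 8.10 and 9.54 for Col1a1, and 2.06 and 2.77 for Lum. With LLC tumor 1 as the only tumor library, the log2 fold change against healthy blood was 6.81 for Mmp3, beside 8.03 with all libraries. For Timp2 it was 1.17, beside 2.14. In that fit the spread of tumor 1 was assumed to be that of the other groups. Tumor 1 itself held 1391 CPM of fibroblast markers. The part of fibroblast reads in the tumor levels of Mmp3 and Timp2 was not tested. Summed markers of LLC and epithelial tumor cells were 67.7 to 129 CPM in tumor and 5.74 to 11.0 CPM in blood. Cdh1 was the largest part in tumor (39.2 to 58.3 CPM), where Epcam had at most 0.173 CPM. Krt7 was lower in tumor (0.271 to 0.864 CPM) than in healthy blood (6.51 to 7.79 CPM). Of the 7 tested, 5 were called higher and 1 lower than in LLC blood, beside 29.6% and 31.7% of all genes. Krt8, Krt18, Peg3 and Igf2bp1 passed the filter on low counts only through the tumor libraries, so a difference was built into their entry. Summed endothelial markers were 90.5 to 94.5 CPM in tumor and 37.4 to 47.2 CPM in blood. In tumor this sum was mostly Pecam1 (41.0 to 56.1 CPM) and Eng (17.1 to 35.9 CPM). Of the 5 tested endothelial markers, 4 were called higher and 1 lower than in LLC blood, beside 29.6% and 31.7% of all genes. Cdh5 passed the filter on low counts only through the tumor libraries. Summed platelet markers were 146 to 227 CPM in tumor and 20.4 to 51.0 CPM in blood. The platelet sum in tumor was mostly Pf4 (70.5 to 119 CPM) and Ppbp (66.0 to 110 CPM), while Itgb3 was lower in tumor (4.24 to 6.91 CPM) than in healthy blood (24.6 to 34.6 CPM). Against healthy blood, 2 of the 7 tested platelet markers were called higher and 3 lower, beside 33.5% and 33.0% of all genes. Of 14 mature macrophage markers, 10 were called higher and 1 lower in tumor than in LLC blood, beside 29.6% and 31.7% of all genes. Among those higher were C1qa (1.38 to 2.01 CPM in LLC blood and 136 to 245 CPM in tumor) and Mrc1 (6.13 to 8.42 and 282 to 496 CPM). Adgre1 (310 to 340 and 164 to 212 CPM), Csf1r (1780 to 2135 and 1172 to 1601 CPM) and Lpl (16.9 to 22.4 and 8.38 to 18.0 CPM) had lower means in tumor. Of 12 Ly6C-high monocyte markers, 4 were called higher and 7 lower in the same comparison, beside the same shares of all genes. The part of these cells in the tumor levels was not tested either.

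**Figure D5:**
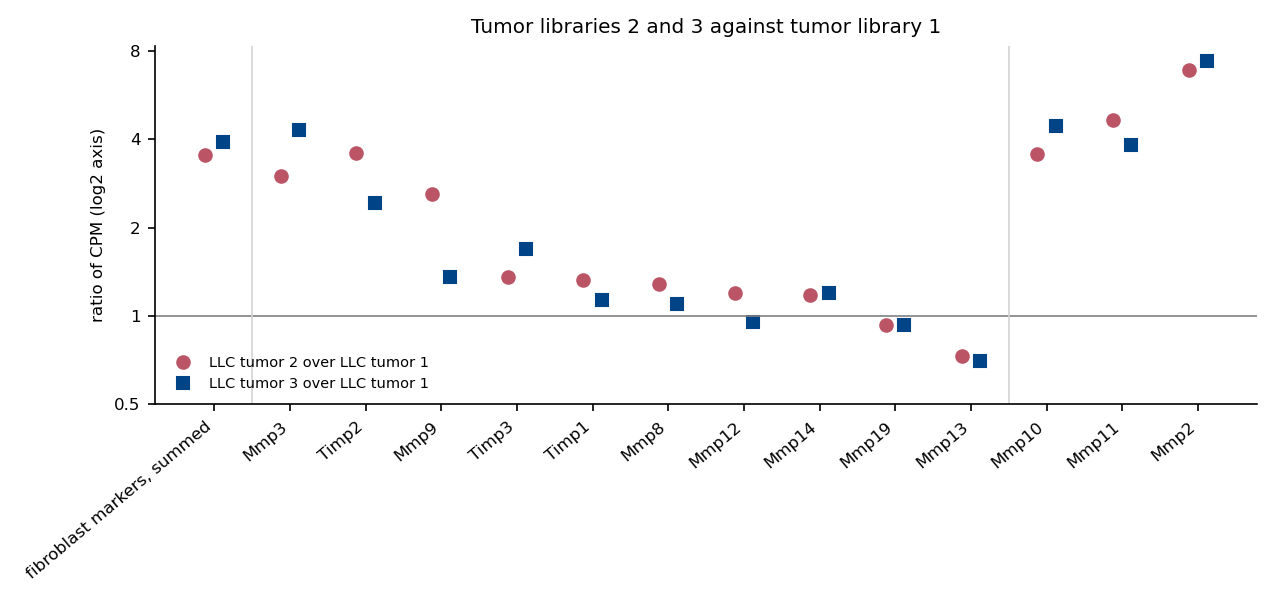
Ratio of the CPM in tumor 2 (circles) and tumor 3 (squares) to that in tumor 1, on a log2 axis, for the 26 summed fibroblast markers (left), the 10 genes (middle) and 3 further MMP genes (right). Mmp3, Mmp10, Mmp11 and Timp2 lie at 2.43 or above as the fibroblast sum does, Mmp2 lies higher, and Mmp8, Mmp12, Mmp13, Mmp14, Mmp19 and Timp1 lie between 0.704 and 1.33.

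LLC blood 1 carried most of the Timp1 and Timp3 reads of its group. Beside 1.91 CPM of Timp1 and 1.82 CPM of Timp3 it held 212 CPM of the collagen gene Col1a1 and 26.3 CPM of Sparc, where the other blood libraries had at most 0.286 and 0.674 CPM. Of the 26 fibroblast markers, 24 were higher there than in LLC blood 2 and 3. Mmp2, the other gelatinase, had 19.5 CPM in LLC blood 1 and 0.572 to 0.860 CPM in the other blood libraries. Mmp14 had 7.17 CPM in LLC blood 1 and at most 5.40 CPM in the other blood libraries. Mmp3 (0.0956 CPM) and Mmp13 (0.478 CPM) in it stayed within the range of the other blood libraries. Of the 10 genes, 6 were highest of the LLC blood libraries in LLC blood 1 and 2 were lowest. The part of fibroblast reads in the Timp1, Timp3 and Mmp14 values of LLC blood was not tested.

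Of the other 17 MMP and TIMP genes, 14 had a count and 5 were tested. Mmp10 and Mmp11 were higher in tumor than in LLC blood, and these, Mmp2 and Mmp25 were higher than in healthy blood. Mmp10 and Mmp11 passed the filter on low counts only through the tumor libraries. Mmp10, a stromelysin in the same cluster as Mmp3, had 0 counts in all 6 blood libraries and 1.37, 4.92 and 6.12 CPM in tumor. Tumor was at least 19.4-fold higher than LLC blood, computed against 3 counts per library (adjusted p = 0.00116). Mmp10 counts were not whole numbers in the 3 tumor libraries, as for Mmp3, so reads may be shared between these 2 genes. Mmp11, another stromelysin, had at most 0.369 CPM in blood and 1.81, 8.42 and 6.91 CPM in tumor (adjusted p = 0.000108 against LLC blood). Mmp2 had 1.90, 13.1 and 14.1 CPM in tumor, and its log2 fold change was 3.75 against healthy blood (SE 1.34, adjusted p = 0.0319) and 0.67 against LLC blood (adjusted p = 0.629). All 3 were lowest in tumor 1. Mmp10 and Mmp11 had ratios of 3.58 to 4.66 in tumor 2 and 3 over tumor 1, and Mmp2 of 6.92 and 7.43.

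The related ADAM and ADAMTS proteases, which shed membrane proteins and cut proteoglycans, moved in both directions. Of 28 listed genes 16 were tested. In LLC blood 4 were higher and 1 lower than in healthy blood, in tumor 9 were higher and 2 lower than in LLC blood, and 10 were higher and 3 lower than in healthy blood. The shares over all tested genes were 14.0% and 9.61%, 29.6% and 31.7%, and 33.5% and 33.0%. These shares hold for the lists that follow too. Adam8, a sheddase of myeloid cells, had 26.2 CPM ± 3.08 (SD, n = 3) in healthy blood, 46.5 ± 3.46 in LLC blood and 2275 ± 93.0 in tumor, a log2 fold change of 5.82 over LLC blood (SE 0.16, adjusted p = 7.5e-08). Adamts1 had 11.3, 64.1 and 60.6 CPM in tumor and at most 0.765 CPM in blood (adjusted p = 5.8e-05 against LLC blood), and it passed the filter only through the tumor libraries. Adam9 rose stepwise, by 0.88 in LLC blood (adjusted p = 0.00199) and by a further 1.02 in tumor (adjusted p = 0.000123). Adamts10 fell by 1.10 on the log2 scale in tumor against LLC blood (adjusted p = 0.000136).

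Genes that activate or restrain MMPs were mostly higher in tumor: of 16 tested, 9 were higher and 3 lower than in LLC blood, and 13 higher and 1 lower than in healthy blood. The list holds the plasminogen system, in which urokinase (Plau), bound to its receptor (Plaur), makes plasmin, a protease that activates several MMPs. Plau had 14.5 CPM ± 2.33 (SD, n = 3) in healthy blood, 12.8 ± 3.32 in LLC blood and 165 ± 9.84 in tumor, a log2 fold change of 3.92 over LLC blood (SE 0.21, adjusted p = 6.9e-07). Plaur was higher by 1.97 (SE 0.18, adjusted p = 1.4e-05). Serpinb2, an inhibitor of urokinase, had at most 2.58 CPM in blood. In tumor it had 43.1, 48.5 and 31.6 CPM, with a log2 fold change over LLC blood of 6.54 (SE 0.45, adjusted p = 2.7e-06). In blood 4 of the 16 were higher in tumor-bearing mice. Lcn2, which binds Mmp9, rose by 3.46 (SE 0.47, adjusted p = 0.00123), and Lrp1, an endocytic receptor that clears MMPs and their inhibitors, rose by 1.26 (SE 0.10, adjusted p = 0.0001).

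Matrix genes, the substrates of these enzymes, were higher in tumor for 16 of 18 tested genes against LLC blood and for 17 of 18 against healthy blood, beside 29.6% and 33.5% of all genes. Col8a1, Col18a1, Eln, Lama4 and Tnc passed the filter on low counts only through the tumor libraries. Some differed between the tumor libraries and some did not. Nid1 had 75.8, 412 and 363 CPM in tumor 1, 2 and 3, and Col18a1 had 46.8, 255 and 248 CPM. Spp1, which encodes the MMP substrate osteopontin, had 2310, 2129 and 1981 CPM, and Thbs1, which encodes the secreted glycoprotein thrombospondin, had 24854, 23644 and 24772 CPM. Spp1 was above LLC blood by a log2 fold change of 8.09 (SE 0.52, adjusted p = 1.7e-06) and Thbs1 above healthy blood by 8.07 (SE 0.37, adjusted p = 2.9e-07). In blood, Lamc1 (2.38, adjusted p = 0.00162) and Vcan (2.36, adjusted p = 0.000165) were the 2 matrix genes called higher in tumor-bearing mice.

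The genes whose pattern over the 9 libraries lay nearest to each gene of the set were found by the root mean square (RMS) difference of centred log2 CPM, among tested genes whose mean was 20 CPM or more, as a description with no test. Mmp12 lay nearest to Arg1 (0.38), Pdpn (0.45) and Dab2 (0.47), and Mmp13 to Arg1 (0.51), Vegfa (0.58) and Mmp12 (0.60). Mmp14 lay nearest to Egln3 (0.39), Adam8 (0.45) and Osm (0.45). For Mmp3 the nearest were the collagen receptor gene Ddr2 (0.88), Pxdn (1.14) and Nos2 (1.15), and for Timp1 they were Col5a1 (0.83), Mmp14 (0.92) and Osm (0.92). Mmp9 lay nearest to Ppbp (0.89), Actn1 (0.99) and C1qb (1.09). Mmp8, whose values moved least, had close neighbours in Mycbp2 (0.074), Xpr1 (0.078) and Ep300 (0.092). Mmp19 lay nearest to Fgd6 (0.24), Synj2 (0.26) and Socs3 (0.28), and Timp2 to Tpm1 (0.20) and Ptprs (0.29). Timp3, at a mean under 1 CPM, was not compared.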

How the data were processed

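RNA-seq of 9 sorted monocyte samples was used, and the other 22 of the 31 samples were not analysed here. The authors deposited estimated counts per gene symbol (expected counts, not normalized), and 8.56% to 9.73% of the values per library were fractional, as when a read is shared between genes. The submitters' processing notes name STAR 2.6.1d, Salmon 1.9.0, edgeR and the build mm10, with no role stated. The authors also deposited CPM values for 10693 of the genes. Whole reads were recovered from them (100% whole within 0.01) and used only as an alternative.

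Counts were rounded and fitted with edgeR 4.0.16 (R 4.3.3): TMM factors, filterByExpr, a quasi-likelihood fit of 9 libraries with the group as the only term, and Benjamini-Hochberg adjustment over all tested genes in each of the 3 comparisons. The fits were tested on simulated data. CPM in the text are estimated counts over the library total. All adjusted p-values come from this fit unless DESeq2 (1.42.0) or limma-voom (limma 3.58.1) is named. Pooled ratios carry exact 95% binomial intervals, which cover counting error only. The genes of the set, the gene lists and the tests were chosen with earlier results of these data known. Beside the 10 genes, list genes were named if called and if their mean over the 6 compared libraries was 5 CPM or more, at most the 5 with the largest change per list and comparison. Some genes stand in more than 1 list, and some that the naming rules gave are not reported here. Alternatives were other scaling factors, no filter, only the 6 libraries compared, the replicate block, DESeq2, limma-voom, stricter thresholds and leaving out each library. Chosen after seeing the data were LLC tumor 1 as the only tumor library, leaving out healthy blood 2 and LLC blood 1 together, and the recovered reads.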

Additional observations from a re-analysis of the deposited data

How the results depend on the processing

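Over 593 alternative values for the 10 genes in 3 comparisons, 569 kept their direction and side of the threshold, 6 lost the call, 6 gained it and 12 turned direction. The turned values were uncalled in both directions. In LLC blood against healthy blood, Mmp9 was 0.53 without healthy blood 2 and LLC blood 1 (-2.94 to 0.31 with single libraries left out), Mmp14 was -0.37 (-0.16 to 0.31) and Timp3 was -2.23 (-3.04 to 3.59), and -0.75 with limma-voom. Mmp8 in tumor against healthy blood was 0.033 with median-ratio factors and with DESeq2, and 0.021 with LLC tumor 1 as the only tumor library (-0.053 to 0.041 with single libraries left out). Timp3 in tumor against LLC blood was called without LLC blood 1 (7.64), also with healthy blood 2 left out (7.59), and with limma-voom (5.27). The causes were not tested, except where fewer libraries entered.

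In blood, members called higher were 1 when an absolute log2 fold change of 1 was also required, and members called lower were 1 without healthy blood 2, alone or with LLC blood 1 (0 to 1 with single libraries left out). Against LLC blood, 0 tumor calls were lower with that fold threshold. Genes called among all genes in blood were 2917, with 4889 in the fit of 6 libraries, 4742 with LLC tumor 1 as the only tumor library, 1663 without healthy blood 2 and LLC blood 1, 5884 with limma-voom, 769 with the fold threshold, 1386 at an adjusted p under 0.01, and 1494 to 5064 with single libraries left out. The fold threshold left 3538 genes between tumor and LLC blood (of 7566) and 3989 between tumor and healthy blood (of 8209). Scaling by library totals alone moved the median of all genes to -0.23 and -0.17 in the tumor comparisons.

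With the replicate block, 2 members were called higher in blood and 8 and 9 in tumor, and no call of a member changed. Same-numbered libraries had correlations of -0.14 to 0.30, and 3 of 9 pairs were over 0.1, so the numbers were not taken as pairs. In blood, Mmp3, Mmp13, Timp1 and Timp3 rest on few counts, which limits the precision of their differences there.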
